A study of Mus musculus with 12 samples.

Results

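The genes described here were 40 transporters and endocytic receptors of the proximal tubule, taken by symbol from the 24062 genes counted in each of 12 mouse kidneys. Of the 40, 37 were solute carriers, 1 was the water channel *Aqp1* and 2 were the endocytic receptors *Lrp2* and *Cubn*. The kidneys were whole kidneys at postnatal day 3, sequenced as RNA, with 3 in each of 4 groups that came from 2 litters per group. LIN28OE kidneys expressed human *LIN28B*, an RNA-binding protein that blocks maturation of *let-7* microRNAs, from a doxycycline-dependent transgene that *Wt1-Cre* opened in the *Wt1* lineage (kidney mesenchyme, its nephrons and podocytes) and that a short pulse before birth induced; their wild-type littermates were C57BL/6 and are called the C57BL/6 controls. The *let-7* KO kidneys (labelled let7KO) constitutively lacked *let-7a1*, *let-7d* and *let-7f1*, and their wild-type littermates, like them, were of mixed CD1 and C57BL/6 background and are called the mixed-strain controls. Whether the C57BL/6 controls carried single transgenes or received doxycycline is not given in the sources used here. Kidneys 1 and 2 of each group were from litter 1 and kidney 3 from litter 2. Nothing in the labels ties a kidney to an animal beyond its litter, so the p-values measure the spread between these kidneys.

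The proximal tubule is the first stretch of the nephron after the glomerulus and takes back most of the filtered sodium, water, glucose, amino acids and phosphate. Its apical brush border carries sodium-driven cotransporters, its basolateral side carries exchangers and facilitated carriers that pass solutes on to the blood, and organic anions and cations are secreted in the opposite direction. Glucose and amino acids are taken up mainly in the early convoluted part by high-capacity carriers and scavenged in the late straight part by high-affinity ones. Filtered proteins are taken up by megalin (*Lrp2*) and cubilin (*Cubn*). In the mouse the last nephrons form in the first days after birth, and the tubules mature after that.

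Each kidney gave between 39926235 and 61872736 counts, so that 3 counts, the floor used here, corresponded to between 0.0485 and 0.0751 counts per 1000000 counts (CPM). The human transgene had no row of its own, and mouse *Lin28b* had 232, 224 and 71 counts in the LIN28OE kidneys and 0, 18 and 33 in the C57BL/6 controls. The paper reported unchanged endogenous *Lin28a* and *Lin28b* RNA in kidneys of this model at the times it tested. Whether reads of the human transgene were counted in the mouse row was not tested. Rows of *Mirlet7a-1*, *Mirlet7d* and *Mirlet7f-1* had 0 counts in all 3 *let-7* KO kidneys, against sums of 8, 54 and 2 in the mixed-strain controls, numbers near the floor. LIN28OE kidney 3 stood apart from kidneys 1 and 2: the mean chi-square per gene was 237 and 227 against them and 60.5 between them. No 2 kidneys of a group agreed within sampling noise (mean chi-square per gene from 31.6 to 239).

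The proximal tubule genes were mostly lower in LIN28OE kidneys, from the phosphate carrier to the water channel. Together they took 0.249% to 0.260% of all counts in LIN28OE kidneys and 0.439% to 0.477% in the C57BL/6 controls. The summed level was 2574, 2657 and 2328 CPM in LIN28OE kidneys and 4463, 4394 and 4250 CPM in the controls. Without *Slc34a1*, the most abundant of them, the sums ran from 1843 to 2136 CPM and from 3082 to 3315 CPM. Every LIN28OE sum therefore lay below every control sum. In bulk RNA, fewer proximal tubule cells and less of each RNA per cell cannot be told apart.

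Gene by gene, 39 of the 40 passed the filter on low counts, and 36 of the 39 had a log2 fold change below 0 in LIN28OE kidneys against the C57BL/6 controls. Their median was -0.90, while the median of all 15793 genes tested was -0.02 and 51.5% of those were below 0. With edgeR's quasi-likelihood test and Benjamini-Hochberg adjustment over all genes, 12 of the 39 fell (adjusted p below 0.05) and none rose, where 0.766% of all genes tested fell and 0.462% rose by the same rule. The 12 were *Slc34a1*, *Slc22a8*, *Slc27a2*, *Slc17a3*, *Slc6a19*, *Slc4a4*, *Slc47a1*, *Slc7a7*, *Slc22a19*, *Slc17a1*, *Slc13a1* and *Slc22a5*. At an unadjusted p below 0.01, the rule the study used, 21 were lower and 0 higher, against 4.08% of all genes lower and 3.25% higher. All 3 LIN28OE kidneys lay below all 3 controls for 25 of the 39 and above them for none, against 13.5% and 10.3% of all genes. With litter as a block 7 were called (*Slc34a1*, *Slc22a8*, *Slc27a2*, *Slc17a3*, *Slc6a19*, *Slc7a7* and *Slc5a2*), where 95 of all 15793 genes were called. DESeq2 called 23, of which 22 were lower and 1 higher (*Slc5a10*), where it called 1264 of all 15793 genes. Leaving out control kidney 1 or control kidney 2 left 2 calls, *Slc34a1* and *Slc22a8*, leaving out LIN28OE kidney 2 left 3 and leaving out control kidney 3 left 6. Without LIN28OE kidney 1 there were 6 calls, 4 of them among the 12 (the others were *Slc5a2* and *Slc5a12*), and without LIN28OE kidney 3 there were 21, with 20 lower and 1 higher (*Slc5a10*) and all 12 among them.

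The *let-7* KO kidneys also had lower summed levels, with a smaller spread of gene effects. The sums were 4990.1, 5602 and 5338 CPM in *let-7* KO kidneys and 7086, 6037 and 5893 CPM in the mixed-strain controls, and the ranges did not overlap. Without *Slc34a1* they did overlap, at 3931, 4315 and 3885 CPM in *let-7* KO kidneys and 5258, 4489 and 4183 CPM in the controls. Of the 39 genes 29 had a log2 fold change below 0 (52% of the 15500 genes tested), with a median of -0.37 against -0.02 for all genes. None passed the adjusted test, in which 0.0194% of all genes were called. At an unadjusted p below 0.05 there were 15, of which 13 were lower and 2 higher (10.8% of all genes in either direction), and at p below 0.01 there were 11 lower and 1 higher, against 1.63% of all genes lower and 1.1% higher. These 12 became 5 without mixed-strain control 1 or *let-7* KO kidney 2, 6 without *let-7* KO kidney 1, 7 without mixed-strain control 3 or *let-7* KO kidney 3, and 8 without mixed-strain control 2. DESeq2 called 7 of the 39: *Slc5a2*, *Slc5a12*, *Slc7a7*, *Slc7a8*, *Slc13a1* and *Slc22a5* lower and *Slc5a10* higher. It called 235 of all 15500 genes tested in this model. Groups did not overlap for 14 lower genes (8.79% of all genes) and for 3 higher ones, *Slc22a7*, *Slc5a10* and *Slc22a13* (7.87% of all genes).

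**Figure D1:**
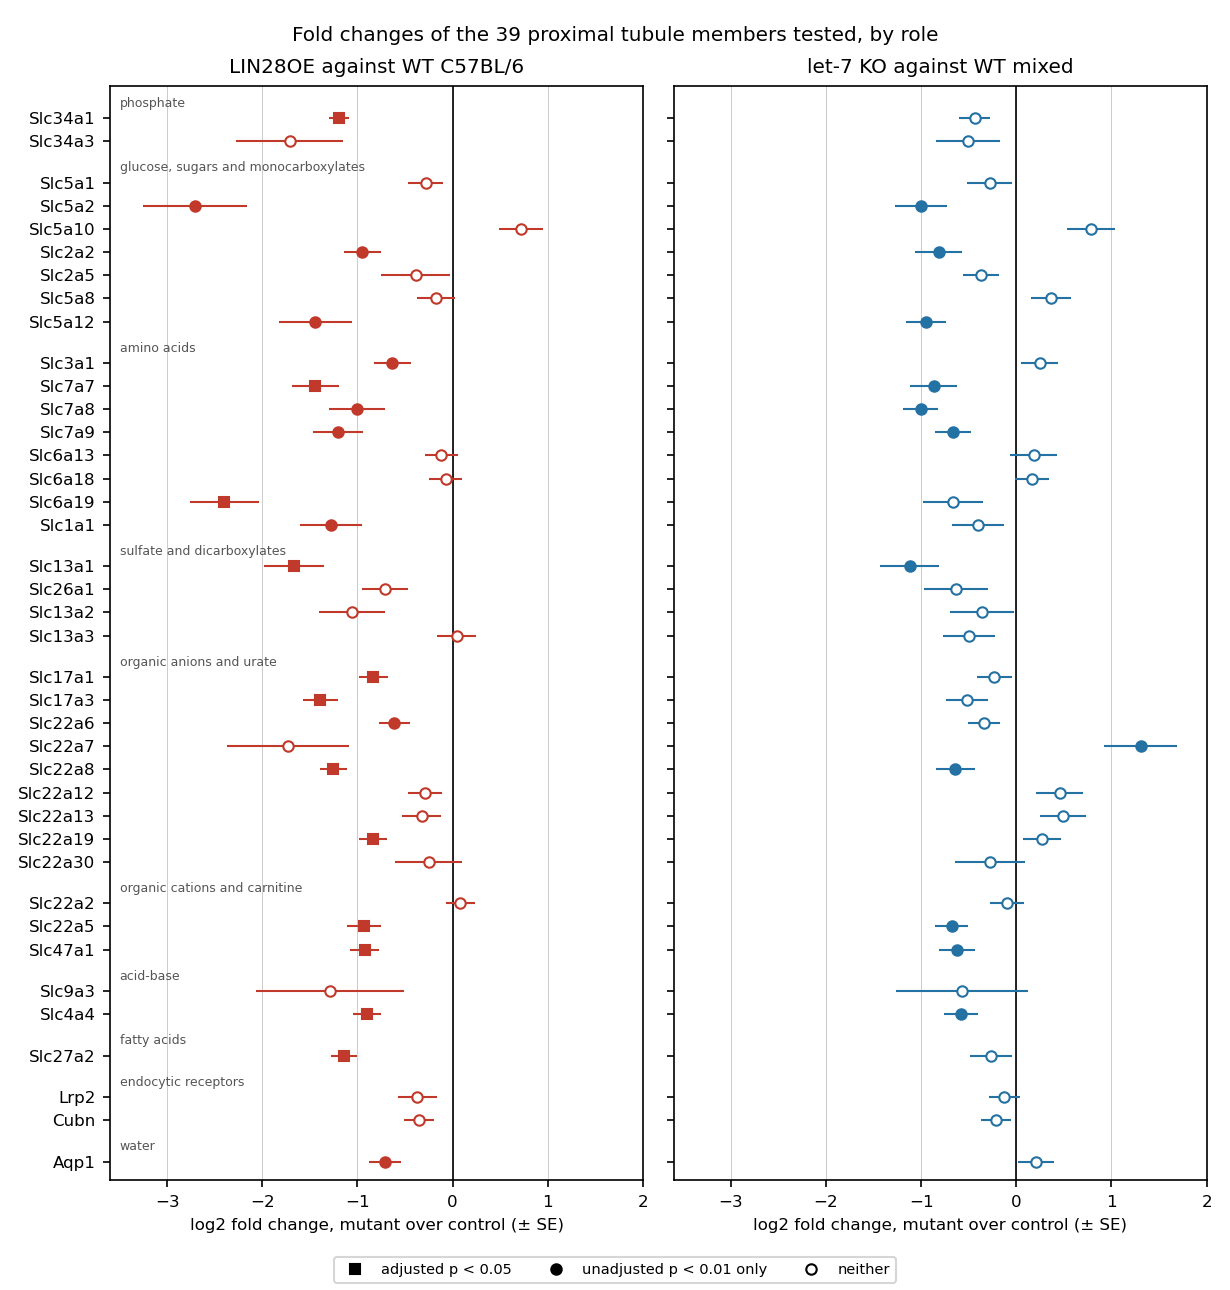
Log2 fold change of each of the 39 proximal tubule genes tested, mutant over littermate control, with bars of 1 standard error, grouped by role; left, LIN28OE against C57BL/6 controls, right, *let-7* KO against mixed-strain controls. Squares pass the adjusted test, filled circles have an unadjusted p below 0.01 only, and open circles neither: 36 of 39 genes lie left of 0 on the left and 29 of 39 on the right.

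A site of HNF4, a transcription factor family of proximal tubule cells, spelled CAAAGTCCA, was searched on both strands in RefSeq promoters (GRCm38.p6, 250 bases before to 50 after each start), where a table held promoters for 34 of the 40 genes. It was present in 1 of their 45 promoters (2.22%), that of *Slc3a1*, and in 0.475% of all 32851 promoters. The window is shown along the strand of the gene, with the motif in capitals, because *Slc3a1* was the only gene of these 34 to hold these letters.
Slc3a1, chr17:85028298-85028326, plus strand: cttggctggaCAAAGTCCAgccatgatta
The first base of the motif lay 39 bases before the start of *Slc3a1*. A match of these letters is a description of the sequence and not a binding site.

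Phosphate is reabsorbed by *Slc34a1* (NaPi-IIa, the main carrier) and *Slc34a3* (NaPi-IIc). *Slc34a1* (ENSMUSG00000021490.11, chr13:55398187-55415592, plus strand, GRCm38) had the highest level per kilobase of exon of the 40 genes in both control groups, at 248 and 363 CPM per kb. It was at 1149, 1167 and 1169 CPM in the C57BL/6 controls and at 513, 521 and 485 CPM in LIN28OE kidneys. The groups stood far apart and each was tight. *Slc34a1* fell by 1.20 on the log2 scale (SE 0.10, edgeR adjusted p = 0.000977), to 0.437 of the control level, and it kept an adjusted p below 0.05 under each of the 9 other settings and with each kidney left out. In the other model it was at 1059, 1288 and 1454 CPM in *let-7* KO kidneys and at 1828, 1548 and 1709 CPM in the mixed-strain controls. All *let-7* KO values were lower, but the log2 fold change of -0.44 (SE 0.17, edgeR adjusted p = 0.392) did not pass the test. *Slc34a3* was a low gene, with 5.20 to 12.7 CPM in the C57BL/6 controls, 1.04 to 4.46 in LIN28OE kidneys, 14.8 to 21.1 in the mixed-strain controls and 8.86 to 18.7 in *let-7* KO kidneys, and passed in neither model. About 11.7% of the exon bases of *Slc34a1* lay in exons of *Pfn3* on the other strand, and the library kit does not mark strand.

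Glucose and other sugars enter through *Slc5a2* (SGLT2, the high-capacity glucose carrier of the early tubule), *Slc5a1* (SGLT1, its high-affinity counterpart of the late tubule) and *Slc5a10* (SGLT5, a mannose and fructose carrier), and leave through *Slc2a2* (GLUT2), while *Slc2a5* (GLUT5) carries fructose. *Slc5a2* was at 53.8, 70.7 and 55.2 CPM in the C57BL/6 controls and at 16.7, 8.47 and 2.37 CPM in LIN28OE kidneys, the lowest value being kidney 3 of the other litter. Its log2 fold change of -2.71 (SE 0.54) was the most negative of the 39 and missed the threshold, with an edgeR adjusted p of 0.0503, and passed it with litter as a block. *Slc5a1* was at 61.7, 55.0 and 43.3 CPM in the controls and at 44.6, 39.2 and 47.4 CPM in LIN28OE kidneys, which overlapped (log2 fold change -0.28, SE 0.18, edgeR adjusted p = 0.470).

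In the other model the 2 carriers had the following values. *Slc5a2* was at 121, 102 and 176 CPM in the mixed-strain controls and at 59.98, 49.6 and 92.9 CPM in *let-7* KO kidneys (log2 fold change -0.998, SE 0.27, edgeR adjusted p = 0.362). *Slc5a1* was at 112, 92.8 and 86.6 CPM against 87.1, 101 and 54.8 CPM, again with overlap (-0.28, SE 0.24). Per base of exon, the ratio of *Slc5a2* to *Slc5a1* was 1.23, 1.82 and 1.81 in the C57BL/6 controls and 0.530, 0.306 and 0.0708 in LIN28OE kidneys, so that SGLT1 RNA outnumbered SGLT2 RNA only in the LIN28OE group for all 3 kidneys. In the mixed-strain controls the ratio was 1.53, 1.56 and 2.88 and in *let-7* KO kidneys 0.975, 0.696 and 2.40, with overlap. About 20.6% of the exon bases of *Slc5a2* lay in exons of *BC017158* on the other strand.

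*Slc2a2* was at 86.2, 60.8 and 63.6 CPM in the C57BL/6 controls and at 42.5, 32.8 and 33.7 CPM in LIN28OE kidneys (log2 fold change -0.95, SE 0.19, edgeR adjusted p = 0.0526). It was at 121, 75.1 and 112 CPM in the mixed-strain controls and at 61.7, 71.9 and 42.8 CPM in *let-7* KO kidneys (-0.82, SE 0.25, adjusted p = 0.362). Both mutant groups were below their controls without overlap. *Slc5a10* went the other way. Its levels ran from 53.3 to 70.1 CPM in the C57BL/6 controls, 67.1 to 129 in LIN28OE kidneys, 60.7 to 110 in the mixed-strain controls and 113 to 178 in *let-7* KO kidneys, with log2 fold changes of 0.72 (SE 0.23, edgeR adjusted p = 0.142) and 0.78 (SE 0.25, adjusted p = 0.367). It was the only one of the 39 with a value above 0 in both models, and DESeq2 called it in both. About 16.8% of its exon bases lay in exons of *Fam83g* and *Grap* on the other strand, so its count is uncertain to that extent. Per base of exon *Slc5a10* stood at 1.01 to 1.56 of *Slc5a2* in the C57BL/6 controls and at 7.60, 18.7 and 34.7 times *Slc5a2* in LIN28OE kidneys, and at 0.422 to 1.11 and 2.21 to 4.40 in the other model. *Slc2a5* had overlapping groups in both models. Its values were 10.5 to 31.4 CPM across LIN28OE kidneys and their controls and 80.7 to 121 CPM across *let-7* KO kidneys and their controls.

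Monocarboxylates such as lactate are taken up by *Slc5a12* (SMCT2, low affinity, early tubule) and *Slc5a8* (SMCT1, high affinity, late tubule), in the same division of labour as the glucose carriers. *Slc5a12* was at 38.1, 37.4 and 32.6 CPM in the C57BL/6 controls and at 22.9, 9.63 and 7.18 CPM in LIN28OE kidneys (log2 fold change -1.45, SE 0.38, edgeR adjusted p = 0.0955). It was at 117, 101 and 94.9 CPM in the mixed-strain controls and at 43.6, 51.6 and 68.9 CPM in *let-7* KO kidneys (-0.95, SE 0.21, adjusted p = 0.325). *Slc5a8* overlapped in both models, at 61.4 to 93.9 against 54.9 to 79.96 CPM for LIN28OE and at 90.6 to 147 against 133 to 164 CPM for *let-7* KO kidneys, controls first.

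**Figure D2:**
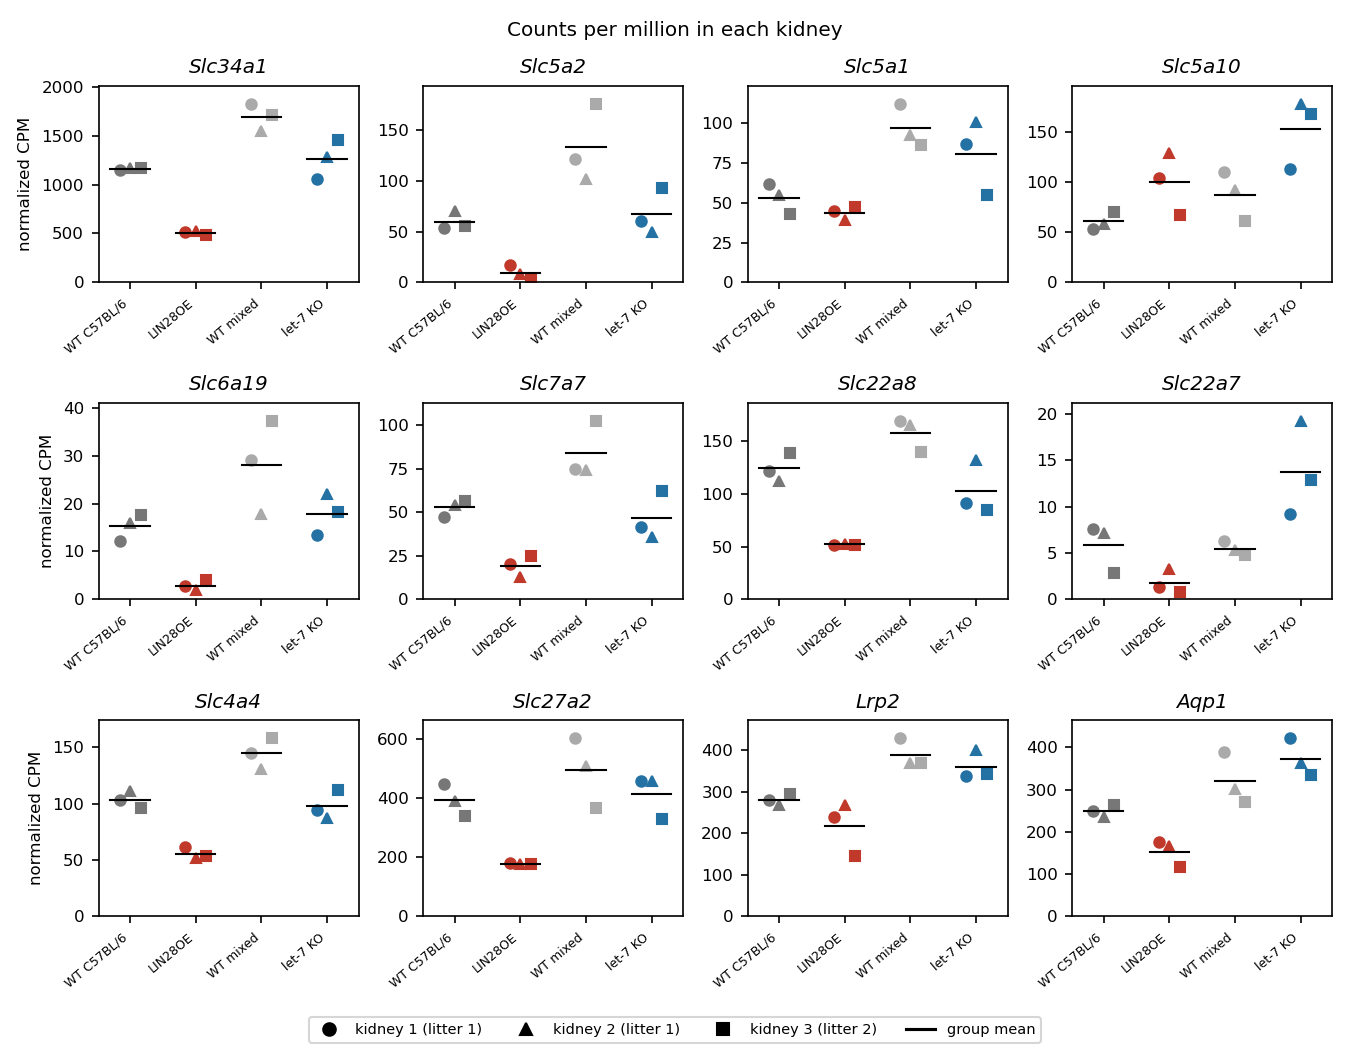
Normalized CPM of 12 of the genes in each of the 12 kidneys, on linear axes that start at 0; symbols mark the kidney and its litter and black lines the group means. *Slc34a1*, *Slc22a8* and *Slc27a2* show tight LIN28OE groups below every C57BL/6 control, *Slc5a1* and *Lrp2* overlap, and *Slc22a7* is higher in all 3 *let-7* KO kidneys than in any mixed-strain control.

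Amino acid carriers held 8 of the genes: *Slc6a19* (B0AT1, neutral amino acids), *Slc7a9* with its heavy chain *Slc3a1* (cystine and dibasic amino acids), *Slc7a7* and *Slc7a8* (basolateral exporters), *Slc1a1* (glutamate and aspartate), *Slc6a18* (a late-tubule glycine carrier) and *Slc6a13* (a GABA and taurine carrier). All 8 were below 0 in LIN28OE kidneys, with a median of -1.11. Of these *Slc6a19* and *Slc7a7* fell (0.766% of all genes) and 6 had an unadjusted p below 0.01 (4.08% of all genes lower). Among *let-7* KO values 5 were below 0, with a median of -0.53, and 3 were lower at p below 0.01 (1.63% of all genes).

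*Slc6a19* was at 12.3, 15.9 and 17.6 CPM in the C57BL/6 controls and at 2.83, 1.85 and 3.95 CPM in LIN28OE kidneys. It fell by 2.40 on the log2 scale (SE 0.36, edgeR adjusted p = 0.0182). It was at 29.1, 17.8 and 37.3 CPM in the mixed-strain controls and at 13.5, 22.0 and 18.2 CPM in *let-7* KO kidneys, where the groups overlapped (-0.67, SE 0.32, adjusted p = 0.478). Its neighbour on chromosome 13, *Slc6a18*, overlapped in both models, at 111 to 123 CPM in C57BL/6 controls against 83.4 to 127 in LIN28OE and at 136 to 189 CPM in mixed-strain controls against 173 to 185 in *let-7* KO kidneys. The 2 carriers need the accessory protein collectrin (*Tmem27*), which fell in LIN28OE kidneys, from 484, 481 and 512 CPM to 258, 278 and 196 CPM (log2 fold change -1.01, SE 0.15, edgeR adjusted p = 0.0146). *Tmem27* had a log2 fold change of 0.03 (SE 0.17) in *let-7* KO kidneys.

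The basolateral exporters were lower in both models. *Slc7a7* was at 47.2, 54.3 and 56.5 CPM in the C57BL/6 controls and at 20.1, 12.97 and 24.8 CPM in LIN28OE kidneys, a fall of 1.44 on the log2 scale (log2 fold change -1.44, SE 0.25, edgeR adjusted p = 0.0291). It was at 74.8, 73.9 and 102 CPM in the mixed-strain controls and at 41.3, 35.9 and 62.2 CPM in *let-7* KO kidneys (-0.87, SE 0.25, adjusted p = 0.362). *Slc7a8* had nearly equal log2 fold changes in the 2 models. It was at 144, 130 and 98.7 CPM in the C57BL/6 controls against 38.7, 55.3 and 91.3 CPM in LIN28OE kidneys (-1.005, SE 0.29, edgeR adjusted p = 0.120), with kidney 3 close to the lowest control. It was at 143, 162 and 134 CPM in the mixed-strain controls against 79.2, 80.4 and 61.7 CPM in *let-7* KO kidneys (-1.003, SE 0.18, adjusted p = 0.239), the smallest p of the 39 in that model. *Slc3a2*, the heavy chain of both, had log2 fold changes of -0.33 (SE 0.12, edgeR adjusted p = 0.179) and -0.56 (SE 0.16, adjusted p = 0.362).

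*Slc7a9* was at 57.5, 72.0 and 43.4 CPM in the C57BL/6 controls and at 20.8, 20.5 and 33.3 CPM in LIN28OE kidneys (log2 fold change -1.21, SE 0.26, edgeR adjusted p = 0.0605). It was at 91.7, 71.6 and 69.8 CPM in the mixed-strain controls and at 45.9, 53.6 and 49.7 CPM in *let-7* KO kidneys (-0.66, SE 0.19, adjusted p = 0.362). Its heavy chain *Slc3a1* was at 109, 104 and 75.3 CPM against 49.6, 67.6 and 68.6 CPM in LIN28OE kidneys (-0.63, SE 0.20, edgeR adjusted p = 0.135) and at 139, 107 and 96.4 CPM against 142, 150 and 119 CPM in *let-7* KO kidneys (0.25, SE 0.19, adjusted p = 0.681). The light chain and its heavy chain thus had log2 fold changes of opposite sign in *let-7* KO kidneys. The ratio of *Slc7a9* to *Slc3a1* per base of exon was 0.275, 0.303 and 0.354 there and 0.559, 0.570 and 0.614 in the mixed-strain controls, against 0.257 to 0.412 in LIN28OE kidneys and 0.447 to 0.585 in the C57BL/6 controls. About 26.5% of the exon bases of *Slc3a1* lay in exons of *Prepl* on the other strand. *Slc1a1* was at 67.4, 64.0 and 38.8 CPM against 16.7, 17.7 and 35.4 CPM in LIN28OE kidneys (-1.28, SE 0.33, edgeR adjusted p = 0.0891) and at 94.6, 52.2 and 80.1 CPM against 69.5, 64.0 and 39.7 CPM in *let-7* KO kidneys (-0.40, SE 0.28, adjusted p = 0.624). *Slc6a13* overlapped in both models, at 45.7 to 60.8 CPM in C57BL/6 controls against 44.5 to 55.7 in LIN28OE and at 62.3 to 92.0 CPM in mixed-strain controls against 66.9 to 123 in *let-7* KO kidneys.

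Sulfate is reabsorbed through *Slc13a1* (NaS1, apical) and *Slc26a1* (Sat1, basolateral), and citrate and other dicarboxylates through *Slc13a2* (apical) and *Slc13a3* (basolateral). *Slc13a1* was at 76.3, 122 and 44.5 CPM in the C57BL/6 controls and at 27.7, 23.7 and 24.7 CPM in LIN28OE kidneys. It fell by 1.67 on the log2 scale (SE 0.31, edgeR adjusted p = 0.0409). It was at 117, 115 and 83.9 CPM in the mixed-strain controls and at 47.2, 72.1 and 27.4 CPM in *let-7* KO kidneys, and its log2 fold change of -1.12 (SE 0.31, adjusted p = 0.362) was the most negative of the 39 in that model. The control spread was wide in the first comparison and the mutant spread in the second. *Slc26a1* and *Slc13a2* were lower in LIN28OE kidneys without overlap (9.76 to 15.8 against 18.8 to 21.9 CPM and 3.79 to 6.43 against 8.36 to 12.8 CPM) and overlapped in the other model. *Slc13a3* had 45.6 to 78.8 CPM in LIN28OE kidneys against 57.7 to 64.8, and 66.8 to 121 CPM in *let-7* KO kidneys against 84.5 to 142.

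Organic anions are taken up from the blood by *Slc22a6* (OAT1) and *Slc22a8* (OAT3), urate and organic anions pass the apical side through *Slc17a1*, *Slc17a3*, *Slc22a12* (URAT1), *Slc22a13* and *Slc22a19* (OAT5), and *Slc22a7* (OAT2) is a further organic anion carrier of the late tubule. All 9 of this group that were tested were below 0 in LIN28OE kidneys, with a median of -0.83, and 4 fell (0.766% of all genes). For *let-7* KO 5 of the 9 were below 0, with a median of -0.23.

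*Slc22a8* was at 122, 113 and 139 CPM in the C57BL/6 controls and at 51.7, 52.7 and 51.7 CPM in LIN28OE kidneys. It fell by 1.26 on the log2 scale (SE 0.14, edgeR adjusted p = 0.00541), with an adjusted p below 0.05 under each of the 9 other settings and with each kidney left out. It was at 169, 165 and 140 CPM in the mixed-strain controls and at 91.5, 132 and 84.9 CPM in *let-7* KO kidneys (-0.64, SE 0.20, adjusted p = 0.366). *Slc22a6*, which lies beside it on chromosome 19, was at 162, 172 and 231 CPM against 118, 117 and 134 CPM in LIN28OE kidneys (-0.61, SE 0.16, edgeR adjusted p = 0.0988) and at 342, 298 and 287 CPM against 216, 270 and 258 CPM in *let-7* KO kidneys (-0.34, SE 0.17, adjusted p = 0.488). The neighbours thus shared direction but not size, and the ratio of *Slc22a6* to *Slc22a8* per base of exon was 2.18 to 2.55 in LIN28OE kidneys against 1.31 to 1.63 in their controls.

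*Slc17a3* was at 40.5, 41.0 and 34.7 CPM in the C57BL/6 controls and at 15.2, 13.7 and 15.3 CPM in LIN28OE kidneys, and fell by 1.39 on the log2 scale (SE 0.18, edgeR adjusted p = 0.00968). In the other model it was at 79.8, 87.9 and 59.96 CPM against 62.8, 44.7 and 53.4 CPM (-0.52, SE 0.22, adjusted p = 0.435). *Slc17a1*, its neighbour on chromosome 13, was at 92.4, 94.6 and 113 CPM against 56.5, 51.5 and 60.2 CPM in LIN28OE kidneys (-0.83, SE 0.15, edgeR adjusted p = 0.0370) and at 181, 133 and 149 CPM against 119, 130 and 150 CPM in *let-7* KO kidneys (-0.23, SE 0.18, adjusted p = 0.680). Both fell in LIN28OE kidneys and overlapped in *let-7* KO kidneys. *Slc22a19* was at 131, 120 and 120 CPM in the C57BL/6 controls and at 60.3, 76.2 and 70.7 CPM in LIN28OE kidneys, and fell by 0.84 on the log2 scale (SE 0.15, edgeR adjusted p = 0.0305). In *let-7* KO kidneys it was at 171, 133 and 136 CPM, against 142, 121 and 98.2 CPM (0.27, SE 0.20, adjusted p = 0.656).

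*Slc22a7* had opposite values in the 2 models. It was at 7.60, 7.16 and 2.87 CPM in the C57BL/6 controls and at 1.27, 3.27 and 0.790 CPM in LIN28OE kidneys, with overlap (log2 fold change -1.73, SE 0.64, edgeR adjusted p = 0.193). In the mixed-strain controls it was at 6.32, 5.36 and 4.74 CPM, and the *let-7* KO kidneys were all higher at 9.20, 19.2 and 12.8 CPM (1.31, SE 0.38, adjusted p = 0.362 in edgeR). *Slc22a12* and *Slc22a13* overlapped with their controls in LIN28OE kidneys (42.9 to 52.2 against 49.1 to 70.6 CPM and 26.1 to 37.5 against 33.2 to 44.7 CPM). In *let-7* KO kidneys *Slc22a13* was at 85.6 to 93.2 CPM, above the 43.1 to 83.1 CPM of the controls, and *Slc22a12* at 96.6 to 156 CPM against 70.4 to 124. *Slc22a30* was low, between 5.27 and 10.7 CPM in all 12 kidneys, and *Slco1a1* had at most 14 counts in a kidney and was not tested. Of all 50-base words in the transcripts of *Slc22a13* and *Slc22a30*, 36% and 34.2% also occurred in another gene (*Slc22a13b-ps* and *Slc22a28*), as did 26.3% for *Slc22a5* (*Slc22a21*), so the counts of these 3 genes are uncertain.

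Organic cations enter through *Slc22a2* (OCT2) and leave into the urine through *Slc47a1* (MATE1), and *Slc22a5* (OCTN2) reabsorbs carnitine. *Slc47a1* was at 95.1, 96.8 and 80.1 CPM in the C57BL/6 controls and at 43.6, 49.1 and 50.4 CPM in LIN28OE kidneys, and fell by 0.92 on the log2 scale (SE 0.15, edgeR adjusted p = 0.0258). It was at 147, 170 and 146 CPM in the mixed-strain controls and at 111, 111 and 81.3 CPM in *let-7* KO kidneys (-0.62, SE 0.19, adjusted p = 0.362). *Slc22a5* was at 92.5, 103 and 68.7 CPM against 46.5, 44.8 and 46.6 CPM in LIN28OE kidneys, and fell by 0.93 on the log2 scale (SE 0.18, edgeR adjusted p = 0.0425). In *let-7* KO kidneys it was at 66.8, 58.7 and 65.3 CPM, against 108, 101 and 93.6 CPM (-0.68, SE 0.17, adjusted p = 0.362). The exit carrier and the carnitine carrier were below their controls without overlap in both models. The entry carrier *Slc22a2* overlapped in both, at 74.6 to 103 CPM in LIN28OE against 84.4 to 89.0 in C57BL/6 controls and at 86.0 to 118 CPM in *let-7* KO against 108 to 115 in mixed-strain controls.

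Acid and base are moved by *Slc4a4* (NBCe1, the basolateral bicarbonate carrier) and *Slc9a3* (NHE3, the apical sodium-proton exchanger), fatty acids are taken up and activated by *Slc27a2* (FATP2), and water crosses through *Aqp1*. *Slc4a4* was at 104, 111 and 95.9 CPM in the C57BL/6 controls and at 61.1, 51.7 and 53.4 CPM in LIN28OE kidneys, and fell by 0.90 on the log2 scale (SE 0.15, edgeR adjusted p = 0.0225). It was at 145, 131 and 158 CPM against 94.4, 87.2 and 112 CPM in *let-7* KO kidneys (-0.58, SE 0.18, adjusted p = 0.362). *Slc9a3* was the lowest gene tested per kilobase and varied widely within groups (log2 fold changes -1.29, SE 0.77, and -0.57, SE 0.70): it was at 2.61 to 5.73 CPM in C57BL/6 controls, 0.409 to 3.97 in LIN28OE, 2.15 to 7.57 in mixed-strain controls and 1.23 to 6.17 in *let-7* KO kidneys.

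*Slc27a2* was the next most abundant of the 40 per kilobase after *Slc34a1* in both control groups. It was at 448, 391 and 340 CPM in the C57BL/6 controls and at 181, 177 and 176 CPM in LIN28OE kidneys. It fell by 1.14 on the log2 scale (SE 0.14, edgeR adjusted p = 0.00710). In *let-7* KO kidneys it was at 459, 459 and 328 CPM, against 604, 510 and 367 CPM (-0.27, SE 0.22, adjusted p = 0.700). *Aqp1* was at 248.6, 235 and 263 CPM in the C57BL/6 controls and at 176, 165 and 116 CPM in LIN28OE kidneys (-0.71, SE 0.17, edgeR adjusted p = 0.0704), without overlap. Its *let-7* KO kidneys, at 422, 363 and 334 CPM, overlapped with the 388, 300.5 and 269.7 CPM of the mixed-strain controls (0.21, SE 0.19, adjusted p = 0.731).

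Among the abundant genes the endocytic receptors had small values. Megalin (*Lrp2*, chr2:69424340-69586065, minus strand, GRCm38) was at 279, 267 and 295 CPM in the C57BL/6 controls and at 239, 268 and 144 CPM in LIN28OE kidneys, where only kidney 3 lay clearly below (log2 fold change -0.37, SE 0.20, edgeR adjusted p = 0.383; -0.15 without that kidney). It was at 430, 368 and 368 CPM in the mixed-strain controls and at 338, 401 and 343 CPM in *let-7* KO kidneys (-0.13, SE 0.16, adjusted p = 0.821; 0.00 with an offset for transcript length). Cubilin (*Cubn*) was at 89.5, 88.6 and 96.0 CPM against 66.5, 84.7 and 62.6 CPM in LIN28OE kidneys (-0.36, SE 0.16, edgeR adjusted p = 0.267) and at 122, 114 and 108 CPM against 94.3, 104 and 102 CPM in *let-7* KO kidneys (-0.21, SE 0.16, adjusted p = 0.663). Neither receptor passed the test, although no mutant value of *Cubn* reached the lowest control in either model. Relative to megalin, *Slc34a1* was at 14.2 to 15.6 per base of exon in the C57BL/6 controls and at 7.66, 6.95 and 12.01 in LIN28OE kidneys, all lower, and at 15.01 to 16.6 in mixed-strain controls and 11.2 to 15.2 in *let-7* KO kidneys, with overlap. The ratio of *Cubn* to *Lrp2* overlapped in both models (0.358 to 0.371 in controls against 0.311 to 0.485 in LIN28OE, and 0.317 to 0.347 against 0.290 to 0.333 in *let-7* KO kidneys). The adaptor *Dab2*, which links megalin to clathrin, fell in LIN28OE kidneys from 354, 354 and 298 CPM to 148, 159 and 204 CPM (log2 fold change -0.97, SE 0.16, edgeR adjusted p = 0.0235) and was at 393, 337 and 498 CPM against 262, 251 and 215 CPM in *let-7* KO kidneys (-0.77, SE 0.19, adjusted p = 0.358).

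**Figure D3:**
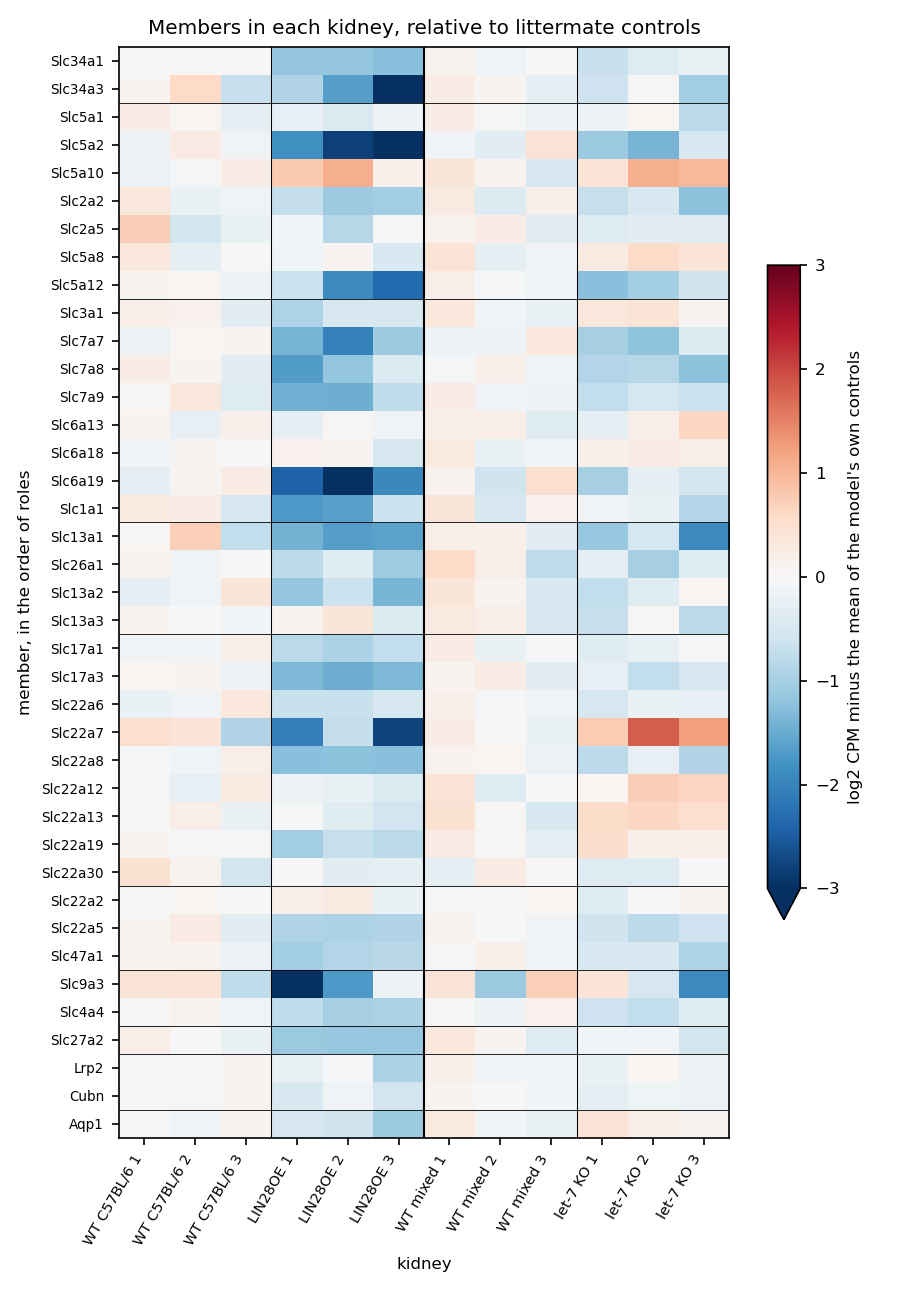
Log2 CPM of each of the 39 genes in each of the 12 kidneys, minus the mean of the model's own 3 controls; genes are in the order of roles, and the colour scale ends at -3, with lower values drawn in the same colour. The 3 LIN28OE columns are mostly blue (29, 29 and 33 of 39 genes below all 3 controls, and 3, 3 and 0 above). The 3 *let-7* KO columns are paler and mixed (23, 18 and 22 of 39 below, and 6, 6 and 6 above). Shares of all genes were not computed for single kidneys, so these counts only describe the picture.

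By textbook position, 8 of the genes mark the early convoluted tubule (*Slc5a2*, *Slc5a12*, *Slc2a2*, *Slc6a19*, *Slc7a7*, *Slc7a8*, *Slc7a9* and *Slc4a4*) and 5 the late straight tubule (*Slc5a1*, *Slc5a8*, *Slc6a18*, *Slc1a1* and *Slc22a7*). All 8 early genes were below 0 in both models. Their median log2 fold change was -1.33 in LIN28OE kidneys, with 3 called and all 8 at an unadjusted p below 0.01, and -0.84 in *let-7* KO kidneys, with none called and 7 at p below 0.01. Of all genes tested, 0.766% were called lower and 4.08% were lower at that p in LIN28OE kidneys, and 0.0194% and 1.63% in *let-7* KO kidneys. The late genes had medians of -0.28 and 0.17, with 5 of 5 and 2 of 5 below 0 and 1 of 5 at p below 0.01 in each, *Slc1a1* lower in LIN28OE kidneys and *Slc22a7* higher in *let-7* KO kidneys. The late list is short and not complete: *Slc22a19* and *Slc7a13*, also carriers of the late tubule, are not in it (both named here after their values were seen), and both were lower in LIN28OE kidneys without overlap, with log2 fold changes of -0.84 (SE 0.15) and -1.53 (SE 0.41), and overlapped in the other model (0.27, SE 0.20, and 0.00, SE 0.40). The mean log2 CPM of the early list minus that of the late list was 0.13, 0.38 and 0.61 in the C57BL/6 controls and -0.18, -0.91 and -0.37 in LIN28OE kidneys. It was 0.42, 0.66 and 0.88 in the mixed-strain controls and -0.45, -0.66 and -0.06 in *let-7* KO kidneys. In both models every mutant kidney was below every control. No test was made of the lists, which were drawn up with earlier results of these data known. Leaving out each kidney in turn, the count of early genes called in LIN28OE kidneys was 0 without any 1 of the 3 controls or LIN28OE kidney 2, 2 without LIN28OE kidney 1 and 7 without LIN28OE kidney 3, and the count at p below 0.01 in *let-7* KO kidneys was 2 (without *let-7* KO kidney 1) to 7 (without mixed-strain control 2). The median of the early list stayed between -1.45 and -1.14 for LIN28OE and between -0.93 and -0.74 for *let-7* KO kidneys.

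**Figure D4:**
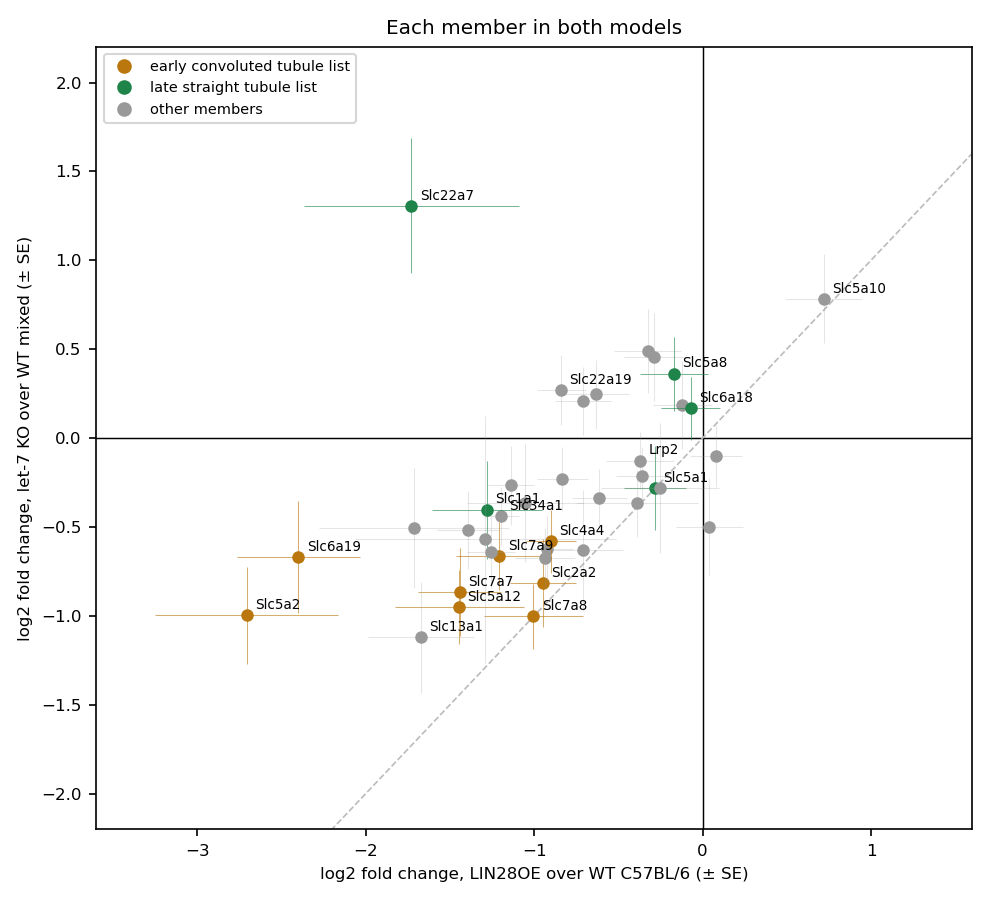
Log2 fold change of each of the 39 genes in LIN28OE kidneys (horizontal) and in *let-7* KO kidneys (vertical), with bars of 1 standard error; the dashed line marks equal values. The 8 early convoluted tubule genes all lie at the lower left. At the upper left lie 9 genes, of which *Slc22a7* is the farthest from 0 on both axes, and *Slc5a10* lies alone at the upper right.

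The 2 models share no kidneys, so their values can be set side by side. Of the 39 genes 27 were below 0 in both models, which is 69.2%, against 34.6% of the 15136 genes tested in both. All 11 genes that were lower in *let-7* KO kidneys at an unadjusted p below 0.01 (*Slc7a8*, *Slc5a12*, *Slc22a5*, *Slc5a2*, *Slc13a1*, *Slc7a7*, *Slc7a9*, *Slc47a1*, *Slc4a4*, *Slc2a2* and *Slc22a8*) were among the 21 of LIN28OE kidneys. They were 100% of the *let-7* KO list and 52.4% of the LIN28OE list, where over all genes tested in both the shares were 32.8% and 12.9%. Across the 39 genes Pearson's r of the 2 log2 fold changes was 0.499 and Spearman's rho 0.627, against 0.22 and 0.357 across all genes, and genes of one kidney share its library and depth. In 36 of the 39 (92.3%) the LIN28OE value was the more negative one, against 50.2% of all genes tested in both.

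A direct test of the difference between the models, as the interaction term when all 12 libraries were fitted together, called none of the 39 at an adjusted p below 0.05, where 0.00602% of all 16598 genes were called. Strain, litter and library order also differ between the models and cannot be told apart from the mutation in this term. At an unadjusted p below 0.05 there were 13 in edgeR (6.27% of all genes) and at p below 0.01 there were 8 (1.04% of all genes lower and 0.512% higher), all with the more negative value in LIN28OE kidneys. The 8 were *Slc22a19* (difference of log2 fold changes -1.13, SE 0.23), *Slc34a1* (-0.78, SE 0.19), *Slc22a7* (-3.05, SE 0.75), *Slc6a19* (-1.76, SE 0.47), *Aqp1* (-0.94, SE 0.25), *Slc27a2* (-0.89, SE 0.26), *Slc17a3* (-0.89, SE 0.27) and *Slc3a1* (-0.90, SE 0.28). DESeq2 called *Slc34a1*, *Slc22a7* and *Slc22a19*. For the early genes other than *Slc6a19* the difference ran from -1.72 (*Slc5a2*, SE 0.66, edgeR adjusted p = 0.697) to -0.02 (*Slc7a8*, SE 0.36), and none of these passed. The 6 genes on chromosome 13, which carries the deleted *let-7* genes, lay 6.86 (*Slc34a1*) to 25.6 (*Slc9a3*) megabases from them, and none of the 6 had a p below 0.01 in *let-7* KO kidneys.

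The 2 control groups differed in these genes. Between mixed-strain and C57BL/6 controls 37 of the 39 genes had a log2 difference above 0, with a median of 0.55 against -0.01 for all 16598 genes, where 51.4% of all genes were below 0. The groups did not overlap for 22, all higher in mixed-strain kidneys (9.38% of all genes higher and 10.1% lower). With edgeR's test 3 were higher at an adjusted p below 0.05, where 0.404% of all genes were higher and 0.223% lower: *Slc2a5* (log2 difference 2.39, SE 0.31, adjusted p = 0.00185), *Slc17a3* (0.97, SE 0.19, adjusted p = 0.0345) and *Slc47a1* (0.77, SE 0.16, adjusted p = 0.0439). *Slc2a5* was at 31.4, 12.9 and 16.5 CPM in the C57BL/6 controls and at 113, 121 and 83.8 CPM in the mixed-strain controls. Leaving out mixed-strain control 1 or 2 or C57BL/6 control 1 or 2 left 1 call, leaving out C57BL/6 control 3 gave 2 calls, 1 of them among the 3, leaving out mixed-strain control 3 gave 3, 2 of them among the 3, and DESeq2 called 10. At an unadjusted p below 0.01 there were 13 higher and 0 lower (1.95% and 1.37% of all genes). Strain, litter and library order cannot be told apart in this comparison, and levels are therefore compared with littermates throughout.

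Further genes of the same cells were taken from lists of endocytic partners, scaffolds and accessory subunits, sodium pump subunits, other transporters and transcription factors. Of those reported here, *Dab2*, *Tmem27* and *Slc6a20b* (a proline carrier) fell in LIN28OE kidneys and none rose, where 0.766% of all genes fell and 0.462% rose. Not all genes of the lists were lower there. Log2 fold changes were above 0 for 2 of 7 endocytic partners, 1 of 6 scaffolds and accessory subunits, 1 of 3 pump subunits and 3 of 15 other transporters. *Slc6a20b* went from 40.1, 44.1 and 33.6 CPM to 20.9, 10.9 and 14.3 CPM (log2 fold change -1.35, SE 0.26, edgeR adjusted p = 0.0439). Lower at an unadjusted p below 0.01 only were the sodium pump subunit *Atp1b1* (-0.56, SE 0.12), the urate exporter *Abcg2* (-0.65, SE 0.14), the peptide carrier *Slc15a2* (-0.83, SE 0.19) and the amino acid carrier *Slc7a13* (-1.53, SE 0.41). Against mixed-strain controls none of these genes passed the adjusted test, and *Dab2* and *Slc3a2* were lower at p below 0.01. *Hnf4a*, which many of these carriers depend on, had log2 fold changes of -0.29 (SE 0.15) and -0.35 (SE 0.18) in the 2 models, and the low gene *Hnf4g* of -1.88 (SE 0.62) and 0.06 (SE 0.66), with edgeR adjusted p-values from 0.151 to 0.984.

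Markers of other kidney cells also moved with the groups. Summed over 6 cap mesenchyme markers (*Six2*, *Cited1*, *Eya1*, *Meox1*, *Osr1* and *Crym*), the level was 326 to 380 CPM in LIN28OE kidneys against 65.7 to 82.7 CPM in their controls, with 5 of the 6 higher in the adjusted test and *Meox1* at an adjusted p of 0.0630 in edgeR. It was 75.8 to 113 CPM in *let-7* KO kidneys against 50.5 to 52.4 CPM, with none of the 6 passing. Thick limb and distal tubule markers (*Umod*, *Slc12a1*, *Slc12a3*, *Calb1* and *Pvalb*) summed to 738 to 812 CPM in LIN28OE kidneys against 1287 to 1816 CPM, with 2 of the 5 lower in the adjusted test, and to 872 to 1473 CPM in *let-7* KO kidneys against 1580 to 1988 CPM. Endothelial markers summed to 249.7 to 252 CPM against 350 to 409 CPM in the LIN28OE model, with 0 of 5 passing, and overlapped in the other. Podocyte sums (233 to 259 against 249.3 to 365 CPM, and 256 to 393 against 365 to 492 CPM), collecting duct sums (945 to 1555 against 1394 to 1636 CPM, and 1993 to 2558 against 993 to 2250 CPM) and stromal sums (1863 to 2541 against 2450 to 2867 CPM, and 2067 to 2934 against 1984 to 2897 CPM) overlapped in both models, mutants given first. Single stromal markers moved in opposite directions in LIN28OE kidneys: *Pdgfra* (-0.69, SE 0.17) and *Pdgfrb* (-0.81, SE 0.16) were lower and *Foxd1* (0.70, SE 0.26) higher without overlap. None of these passed the adjusted test. Leukocyte markers summed to at most 56.6 CPM in any kidney. The sums were lower in both mutant groups, at 25.7 to 42.98 against 54.8 to 56.6 CPM and at 24.7 to 41.7 against 42.95 to 50.001 CPM. No leukocyte marker passed the adjusted test in either model. The very low gene *Cd3e* went the other way in LIN28OE kidneys, at 0.507 to 0.935 CPM against 0 to 0.252 CPM. The globin genes were at 0 in all 12 kidneys, and 4 liver markers, used as tissue outside the kidney, summed to 9.91 to 236 CPM with overlap in both models. The part of these shifts in the results above was not tested. *Lrp2*, *Slc34a1* and *Aqp1*, which are high in the proximal tubule, were present in every kidney.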

How the data were processed

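Whole-kidney RNA of 12 mouse kidneys at postnatal day 3 was made into SMARTer Ultra Low (V3) libraries, a kit that does not mark strand, and sequenced on an Illumina HiSeq. For each kidney the authors deposited a list of unnormalized read counts by gene symbol. The submitters' processing notes name cutadapt, TopHat2 2.0.9, Bowtie2, SAMtools 0.1.19, HTSeq and mm10, with no roles; the annotation, the strand setting and the treatment of reads shared between genes are not given in the sources used here. Counts of near-identical or overlapping genes are therefore uncertain. Beyond the overlaps named above, exons of other genes on the other strand covered 31.9% of the exon bases of *Slc1a1* and 30.1% of *Slc22a12*. For *Slc13a2* and *Slc27a2* the shares were 26.2% and 11.2%. Totals per kidney ran from 39926235 to 61872736, and the count floor covers counting error only.

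Groups came from the sample labels. Each model was fitted alone with edgeR 4.0.16 (R 4.3.3): filterByExpr (minimum count 10, minimum total 15), TMM factors and the quasi-likelihood test, two-sided, with Benjamini-Hochberg adjustment over all genes tested. Standard errors are the log2 fold change over the square root of F. The difference between the models and between the control groups came from a fit of all 12 kidneys. CPM values use TMM factors of all 12 kidneys. An exact permutation test of 3 against 3 kidneys cannot give a p below 0.1 and was not used for calls. The members and all gene lists were chosen with earlier results of these data known. Kidney values are given for genes with an unadjusted p below 0.01 in either model and always for *Slc34a1*, *Slc5a1*, *Slc5a2*, *Slc22a6*, *Lrp2*, *Cubn* and *Aqp1*, and other members by range; further genes are named with values when p was below 0.01 or they were transcription factors of the list. Some genes of these lists, and a further promoter motif searched, are not reported here. Gene positions and exon lengths are from GENCODE M21 (GRCm38), promoters from RefSeq. Scripts were tested on simulated counts.

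Litter numbers in the labels are shared by mutants and controls, so litter is a pairing given by the labels. Deviations from group means did not follow it: their mean correlation was -0.0854 within and 0.106 between litters for LIN28OE, and -0.0223 and 0.0278 for *let-7* KO. Alternatives were DESeq2 1.42.0, other normalizations and filters, litter as a block, 1 fit of all kidneys, a Y-linked covariate, a transcript length offset, other thresholds and each kidney left out.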

Additional observations from a re-analysis of the deposited data

How the results depend on the processing

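Over the 39 genes the median log2 fold change kept its sign under every alternative run: for LIN28OE it ranged from -0.90 to -0.84 across 9 other settings and from -0.90 to -0.82 with each kidney left out, and for *let-7* KO from -0.37 to -0.33 and from -0.41 to -0.31. The count of LIN28OE calls, 12 in the fit as reported, was 7 with litter as a replicate block, 23 with DESeq2, 21 at an unadjusted p below 0.01, 19 at an adjusted p below 0.1 and from 2 to 21 with each kidney left out; with RLE or upper-quartile factors and with the Y-linked covariate it was 12, and between 15 and 17 with no filter, a strict filter, 1 fit of all kidneys or the length offset. The *let-7* KO count of 0 became 7 with DESeq2 and 12 at an unadjusted p below 0.01, and the count at that threshold was from 5 to 8 with each kidney left out. The interaction count of 0 became 3 with DESeq2 and 8 at an unadjusted p below 0.01. Between the control groups the count of 3 became 10 with DESeq2, 13 at an unadjusted p below 0.01 and from 1 to 3 with each kidney left out. Beyond the calls named above for LIN28OE, the litter block changed no call. Why DESeq2 and edgeR differ was not tested. Signs turned for weak values only: *Slc2a5* (-0.633 to 0.0769), *Slc5a8* (-0.311 to 0.00126), *Slc6a18* (-0.177 to 0.0916) and *Slc13a3* (-0.129 to 0.220) in LIN28OE and *Slc6a13* (-0.0502 to 0.367) and *Slc22a2* (-0.180 to 0.0124) in *let-7* KO with a kidney left out, and *Lrp2* in *let-7* KO with the length offset (0.00296). With 3 kidneys a group, differences of the size seen for *Lrp2* and *Cubn* did not pass the test.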
